A study of Rattus norvegicus with 20 samples.

Results

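The 10 genes described here encode receptors for prostaglandins, omega-3 fatty acids and the mediators made from them, together with annexin A1, a protein ligand of one of these receptors. They were the rows of the count table of dorsal root ganglia (DRG) listed as Ptger1, Ptger2, Ptger3, Ptger4, Ptgir, Cmklr1, Gpr37, Ffar4, Fpr2 and Anxa1, 10 of 39747 genes. The rows were taken by gene name, with earlier results of these data known. All rats were female Sprague-Dawley rats without a genetic change, fed either a soy oil diet (SOD, an AIN-93G formulation) or a fish oil diet (FOD, the same formulation with fish oil rich in EPA and DHA in place of most of the soy oil) from 4 weeks before surgery. In chronic constriction injury (CCI) rats, the left sciatic nerve was tied loosely with 4 chromic gut ligatures, whereas in sham rats (CT) the nerve was exposed and not ligated. The left DRG gave 4 libraries of SOD-CT, 3 of SOD-CCI, 3 of FOD-CT and, lastly, 4 of FOD-CCI rats, and the right (contralateral) DRG of 3 SOD-CCI and 3 FOD-CCI rats gave 6 more, so that 20 libraries came from 14 rats. Tissue was taken 1 week after surgery, by the study's account of the DRG libraries. Its methods also give 4 more weeks of diet after surgery, which is longer than that time. Samples of SOD-CCI and FOD-CT were left out by the study before libraries were made. The p-values given measure the spread between the libraries of different rats. In comparisons of left with right DRG of the same rats, they measure the spread of the side difference between rats.

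Prostaglandin E2 and prostacyclin are made from arachidonic acid by cyclooxygenases. Prostaglandin E2 acts on the EP receptors, encoded by Ptger1 to Ptger4, and prostacyclin on the IP receptor, encoded by Ptgir. In sensory neurons, EP and IP receptors are known for lowering the threshold of pain-sensing neurons (nociceptors), those coupled to Gs through cyclic AMP. Fish oil supplies eicosapentaenoic acid (EPA) and docosahexaenoic acid (DHA), from which cells make resolvins, protectins and related mediators known for ending inflammation. Cmklr1 binds chemerin and resolvin E1, Fpr2 binds lipoxin A4, resolvin D1 and annexin A1, Gpr37 is a receptor for which prosaposin peptides and protectin D1 have been proposed as ligands, and Ffar4 senses free long-chain fatty acids.

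Of the 20 libraries, 4 stood apart from the rest. In FOD-CT replicate 1, FOD-CCI replicate 1 and the first FOD-CCI contralateral library there were 1295, 1738 and 1851 summed CPM (counts scaled to an equal library total) of 8 oligodendrocyte markers, with none of the 8 at 0, against 8.07 to 47.2 CPM in the other 17 libraries, and they are called here the libraries with spinal cord transcripts, since oligodendrocytes are cells of the central nervous system. SOD-CT replicate 1 held 114500 CPM of 6 skeletal muscle markers, against 4.74 to 17010 CPM elsewhere. Neuron markers (8 genes, none at 0 in any library) summed to between 11350 and 27870 CPM except in FOD-CCI contralateral replicate 1, which had 3971 CPM. Nerve injury genes (Atf3, Gal, Sprr1a, Npy, Jun, Ecel1, Adcyap1 and Gap43) summed to 1314 to 3416 CPM in 6 of the 7 left DRG of CCI rats and to 320.5 to 651.6 CPM in the 7 sham DRG. The library labelled FOD-CCI replicate 1 had 332.7 CPM of them, within the sham range, with Atf3, a transcription factor induced by axon injury, at 3.19 CPM (12.3 to 49.9 in sham DRG and 205.5 to 492.9 in the other 6) and Sprr1a at 0. It therefore went against its label as an injured ganglion. It keeps its label as a name, and results that rest on it are given with and without it. Since it was singled out by its injury genes, injury differences called without it are not independent of that choice. Library totals ran from 22547190 to 54437581 counts. In RNA from whole ganglia, fewer cells of a type and less RNA per cell cannot be told apart.

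Compared per transcript length (as FPKM, fragments scaled by gene length and library), Anxa1 was the most abundant of the 10 genes, with a median of 91.7 FPKM over the 20 libraries and a range of 47.25 to 312, above every library of every other member except for the 3 libraries with spinal cord transcripts in Gpr37 (up to 119.9 FPKM). Ptgir followed with a median of 18.9 FPKM and Gpr37 with 8.12. The EP receptor genes stood at medians of 4.29 FPKM for Ptger4, 3.11 for Ptger1, 2.64 for Ptger3 and 1.31 for Ptger2, and Cmklr1 at 1.29. Ffar4 and Fpr2 had a median of 0. Below Anxa1, which did not overlap Ptgir (0.495 to 38.2 FPKM), the ranges of neighbours in this order overlapped at every step, and those of Ptger4 (1.46 to 10.5 FPKM), Ptger1 (1.57 to 5.32) and Ptger3 (0 to 6.52) overlapped almost entirely, so the order among the EP receptor genes was not separated by the spread between libraries.

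**Figure D1:**
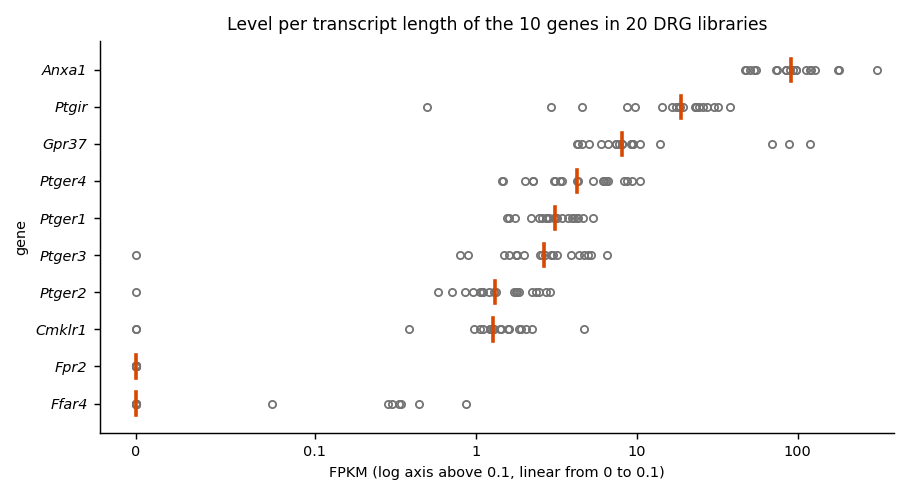
Level of the 10 genes in FPKM (horizontal axis, logarithmic above 0.1 and linear from 0 to 0.1) in each of the 20 DRG libraries (open circles), with the median over libraries as a vertical bar. Anxa1 lies highest, with a median of 91.7 FPKM, and Ffar4 and Fpr2 lie at or near 0.

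Ptger4, Ptgir, Gpr37 and Anxa1 are the 4 members at an unadjusted p under 0.05 between the injured and the uninjured side of the same rats. With all rats in the fit, edgeR with a filter on low counts called none of them, while DESeq2 called all 4. The 250 bases before the annotated start of each are shown, from RefSeq on GRCr8, 5′ to 3′ on the strand of the gene and ending at the base before the start. They are the stretches at chr2:56073523-56073772 (minus strand) for Ptger4, chr1:86707440-86707689 (plus) for Ptgir, chr4:55126421-55126670 (minus) for Gpr37 and chr1:227303733-227303982 (minus) for Anxa1. Capitals mark every match, on either strand, to the letters searched, which were TGANTCA for AP-1, then TGACG for the core of the cyclic AMP response element, then ACAAAG for SOX proteins, then TATAAA for the TATA box, and lastly GGGCGG for the GC box.
Ptger4: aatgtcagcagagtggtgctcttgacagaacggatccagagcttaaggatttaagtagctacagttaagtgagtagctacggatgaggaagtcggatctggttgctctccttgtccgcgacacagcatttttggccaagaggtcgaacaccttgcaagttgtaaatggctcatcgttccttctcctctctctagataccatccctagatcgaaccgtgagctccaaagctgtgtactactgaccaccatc
Ptgir: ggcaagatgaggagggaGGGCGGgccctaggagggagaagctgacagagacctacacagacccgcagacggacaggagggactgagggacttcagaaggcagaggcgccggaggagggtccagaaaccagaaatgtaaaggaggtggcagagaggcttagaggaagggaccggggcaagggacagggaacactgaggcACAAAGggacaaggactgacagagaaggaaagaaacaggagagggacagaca
Gpr37: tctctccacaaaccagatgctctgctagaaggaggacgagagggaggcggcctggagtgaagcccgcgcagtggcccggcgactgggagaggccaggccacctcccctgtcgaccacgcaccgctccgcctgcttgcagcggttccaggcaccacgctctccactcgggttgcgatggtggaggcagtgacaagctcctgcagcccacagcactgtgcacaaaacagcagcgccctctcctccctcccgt
Anxa1: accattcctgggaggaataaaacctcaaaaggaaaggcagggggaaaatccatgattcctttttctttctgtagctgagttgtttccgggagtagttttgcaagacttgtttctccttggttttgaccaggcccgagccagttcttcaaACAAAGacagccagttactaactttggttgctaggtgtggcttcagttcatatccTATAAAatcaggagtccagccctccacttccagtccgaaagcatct
The Anxa1 stretch held 1 TATA box match, and 1 SOX match, and the Ptgir stretch held 1 GC box and 1 SOX match. The Ptger4 and Gpr37 stretches held none of these letters, and none of the 4 stretches held the AP-1 or cyclic AMP response element letters. Among the same 250 bases of 33469 rat promoters, the AP-1 letters were in 6.34%, the response element core in 18.2%, the SOX letters in 16.3%, the TATA box in 12.9% and the GC box in 30.5%. A match is a description of letters and not of a bound site. All 10 genes had an entry in this table.

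Of the 10 genes, 8 passed the filter (10 counts or more in 90% or more of the libraries compared) in the comparisons of left DRG and of left with right DRG, and 7 in those of contralateral with sham DRG, in which Cmklr1 did not pass. Ffar4 and Fpr2 passed in none. Calls come from the quasi-likelihood test of edgeR on all genes: the p adjusted by Benjamini and Hochberg had to be 0.1 or lower, and the fold 1.2 or higher. Since the same libraries enter several of the comparisons, their values are given side by side and are not independent of each other.

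Injury on SOD (SOD-CCI versus SOD-CT) was the contrast with the widest difference across all genes by unadjusted p. Of the 8 tested members 0 were called, as were 0.0% of the 14484 genes tested, and 0 had an unadjusted p under 0.05, against 13.8% of all genes. The DESeq2 Wald test called 0 members and 594 genes in all (4.1%). The ranges of 3 members did not overlap between the groups (17.8% of all genes), with Ptger4 and Ptgir higher and Ptger2 lower in SOD-CCI. For injury on FOD (FOD-CCI versus FOD-CT), 0 of 8 were called (0.0% of all genes), 1 of 8, Anxa1, had an unadjusted p under 0.05 (4.52% of all genes), and DESeq2 called 0 members (0.145% of all genes). Averaged over both diets, a contrast added after the data were seen, injury gave 0 of 8 called (0.0%) and 1 of 8, Ptger4, at an unadjusted p under 0.05 (11.5%). The diet by injury interaction gave 0 of 8 on either count (0.0% called and 5.01% at an unadjusted p under 0.05 among all genes).

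Diet, after injury (FOD-CCI versus SOD-CCI) and in sham rats (FOD-CT versus SOD-CT), likewise gave 0 of 8 called (0.0% of all genes in both). After injury 0 of 8 had an unadjusted p under 0.05 (5.4% of all genes), and 1 of 8, Ptger3, had ranges that did not overlap (14.7%). In sham rats 0 of 8 had an unadjusted p under 0.05 (3.39%), and log2 fold changes (log2FC) ran from −0.76 for Ptger3 to 1.92 for Gpr37. DESeq2 called 0 members in either, as it did 0.0138% of all genes after injury and 0.0% in sham rats. With 8 genes, counts of 0 or 1 are no result about the members beside these shares.

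**Figure D2:**
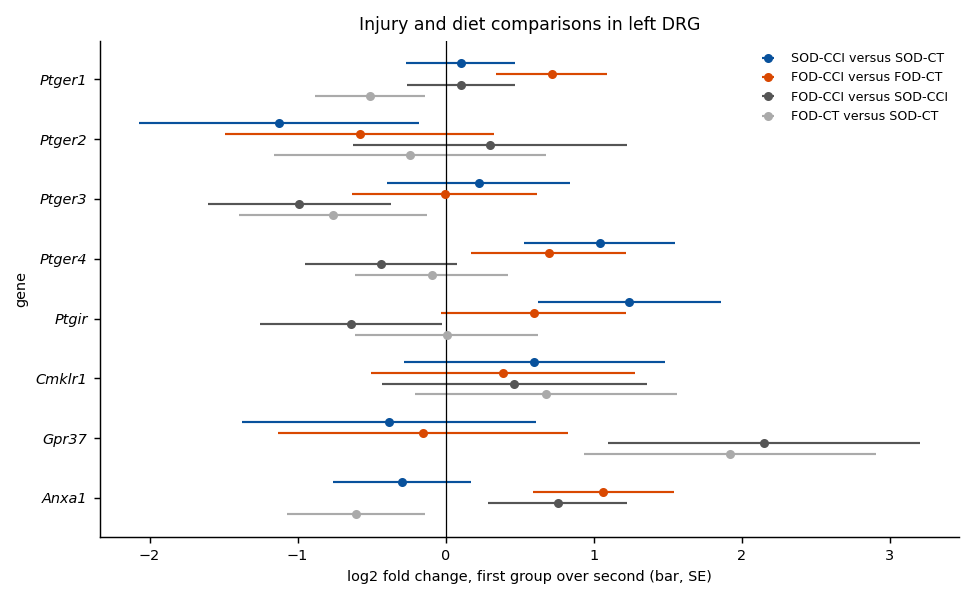
log2FC (horizontal axis, first-named group over second, bars are SE) of the 8 tested genes in the 4 comparisons of left DRG, from the edgeR fit on 14 libraries. Ptger4 and Ptgir lie above 0 after injury on both diets, and the wide bars of Gpr37 come with its 2 libraries at 214 and 273.5 CPM.

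Comparing the left with the right DRG within rats takes out differences between animals. In SOD-CCI rats 0 of 8 members were called (0.131% of 14549 genes), 2 of 8 had an unadjusted p under 0.05 (8.48% of all genes) and 5 of 8 had ranges that did not overlap (20.6%). In FOD-CCI rats 0 of 8 were called (0.0137%) and 3 of 8 had an unadjusted p under 0.05 (6.96%). In the mean of both diets, added after the data were seen, 0 of 8 were called (0.962%) and 4 of 8 had an unadjusted p under 0.05 (11.6%), namely Ptger4, Ptgir and Anxa1, higher on the injured side, and Gpr37, lower. The side by diet interaction gave 0 of 8 on either count (0.0% and 2.91%). These counts turned on FOD-CCI rat 1, the rat with spinal cord transcripts on both sides and sham-like injury genes: without both of its DRG, all 4 genes were called in the mean of both diets, where 7.64% of 14992 genes were, and 1 member, Anxa1, was called in SOD-CCI rats, where 3.14% were. With all rats, DESeq2 called the same 4 genes (5.43% of all genes), and edgeR without a filter on low counts called Gpr37 (1.66% of 27477 genes).

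**Figure D3:**
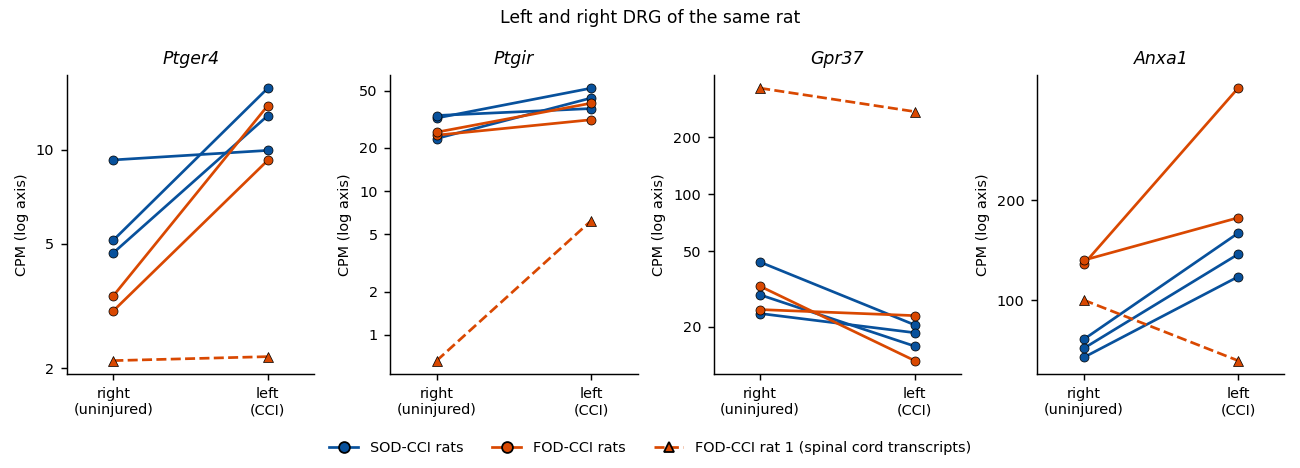
CPM (logarithmic axis) of Ptger4, Ptgir, Gpr37 and Anxa1 in the right and left DRG of 6 CCI rats, with a line for each rat. Ptger4 and Ptgir were higher on the left in 6 of 6 rats and Gpr37 lower in 6 of 6, while Anxa1 was higher in 5 of 6, all but the FOD-CCI rat drawn with a dashed line.

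Ptger4 encodes EP4, a Gs-coupled prostaglandin E2 receptor. It had 9.17, 6.43, 3.37 and 6.48 CPM in SOD-CT and 12.85, 9.94 and 15.73 CPM in SOD-CCI. Every SOD-CCI library was thus above every SOD-CT library, by 2.06-fold in the fit (log2FC 1.04, SE 0.51, unadjusted p = 0.0618, edgeR adjusted p = 0.381). On FOD it had 4.51, 5.08 and 8.05 CPM in sham DRG and 2.18, 9.24, 13.84 and 12.55 CPM in FOD-CCI. Replicate 1 was the low FOD-CCI library, and the other 3 were above all FOD-CT libraries. In the mean of both diets the log2FC was 0.87 (SE 0.37, unadjusted p = 0.033, edgeR adjusted p = 0.387), and without FOD-CCI replicate 1 it was 1.03 (SE 0.27, edgeR adjusted p = 0.0792), the only member then called (3.54% of all genes). That library had been singled out by its low injury genes, so this call is not independent of leaving it out. FOD-CCI and SOD-CCI overlapped (log2FC −0.44, SE 0.51, edgeR adjusted p = 0.914), and without FOD-CCI replicate 1 the value was −0.11 (SE 0.39).

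The right DRG had 4.67, 9.27 and 5.13 CPM of Ptger4 in SOD-CCI rats and 2.11, 3.05 and 3.41 CPM in FOD-CCI rats. Left was higher than right in 6 of 6 rats, by ratios of 2.75, 1.07 and 3.07 in SOD-CCI rats 1 to 3 and 1.03, 3.03 and 4.06 in FOD-CCI rats 1 to 3, so that the difference was near nil in SOD-CCI rat 2 and FOD-CCI rat 1. The log2FC was 1.09 on SOD (SE 0.50, unadjusted p = 0.0565), with ranges that did not overlap, and 1.26 on FOD (SE 0.51, unadjusted p = 0.036). Over both diets it was 1.18 (SE 0.36, unadjusted p = 0.00939, edgeR adjusted p = 0.25), and 1.46 without FOD-CCI rat 1 (SE 0.30, edgeR adjusted p = 0.0279). The contralateral DRG of FOD-CCI rats lay below those of SOD-CCI rats without overlap (log2FC −1.12, SE 0.50, unadjusted p = 0.0419, edgeR adjusted p = 0.697), and also below FOD-CT (log2FC −1.04, SE 0.50, unadjusted p = 0.0566).

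Nerve injury genes moved with Ptger4. Of the 7 tested, 6 were called on the injured side over both diets and 4 in SOD-CCI rats. The 6 left CCI libraries with 1314 CPM or more of those genes had 9.24 to 15.73 CPM of Ptger4, and the other 14 libraries had 2.11 to 9.27 CPM. Macrophages express Ptger4 as well as neurons do, and the 8 macrophage markers summed to 170.2 to 247.7 CPM in SOD-CCI, 54.4 to 169.3 in SOD-CT, 149.1 to 584.7 in FOD-CCI, 65.2 to 242.7 in FOD-CT, 29.6 to 72.7 in SOD-CCI contralateral and 124.4 to 281.8 in FOD-CCI contralateral DRG. At most 3 of these markers were at 0 in a library, and their part in the Ptger4 values was not tested.

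Ptger1, which encodes the calcium-mobilizing EP1 receptor, had 4.80 to 8.62 CPM (median 6.69) in SOD-CT and 5.32 to 9.10 (median 6.76) in SOD-CCI. The SOD groups overlapped (log2FC 0.10, SE 0.37, edgeR adjusted p = 0.921), as did FOD-CCI, at 5.47 to 10.2 CPM, with SOD-CCI (log2FC 0.10, SE 0.37, edgeR adjusted p = 0.975). FOD-CT had 3.38, 4.34 and 6.22 CPM. The direction of both differences turned when single libraries were left out. Left was above right in 5 of 6 rats, all but FOD-CCI rat 1, by up to 2.94-fold.

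Ptger2, which encodes the Gs-coupled EP2 receptor, was the least abundant EP gene, with 36, 59, 125 and 81 counts in SOD-CT and 37, 38 and 47 counts in SOD-CCI. In CPM these were 2.43, 2.39, 3.97 and 3.10 against 1.303, 1.18 and 1.53, so the SOD-CCI libraries all lay below the SOD-CT libraries. The log2FC was −1.12 with an SE of 0.95 (unadjusted p = 0.254, edgeR adjusted p = 0.607), so the edgeR test, whose spread is estimated over all groups in the fit, did not separate these 2 groups. FOD-CCI held 67, 0, 90 and 75 counts and FOD-CT 119, 26 and 128, and FOD-CCI overlapped SOD-CCI (log2FC 0.30, SE 0.93, edgeR adjusted p = 0.973). That value was 0.0509 without FOD-CCI replicate 1 and 0.71 without replicate 2, the library at 0. A count of 0 in a library of 29777404 counts allows up to 0.101 CPM, for counting error only.

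Ptger3, which encodes the mainly Gi-coupled EP3 receptor, had 4.93, 5.997 and 4.08 CPM in SOD-CCI and 1.88, 1.13, 3.13 and 3.86 CPM in FOD-CCI. All FOD-CCI libraries lay below all SOD-CCI libraries (log2FC −0.99, SE 0.62, unadjusted p = 0.133, edgeR adjusted p = 0.859). Of 7 nociceptor markers (named with Ptgir), 0 had a log2FC above 0 in that comparison (median −0.78, 1 at an unadjusted p under 0.05), with sums of 1015 to 2940.0 CPM in FOD-CCI and 2583 to 2901 CPM in SOD-CCI, and their part in the Ptger3 values was not tested. SOD-CT spanned 1.03 to 8.26 CPM and held the SOD-CCI range within it (log2FC 0.22, SE 0.62, edgeR adjusted p = 0.894). Left was above right in 3 of 3 SOD-CCI rats, with ranges that did not overlap (2.28, 3.47 and 3.73 CPM on the right, log2FC 0.70, SE 1.14, unadjusted p = 0.555). In FOD-CCI rats 2 and 3 the right side was higher, at 6.40 and 6.65 CPM against 1.13 and 3.13 CPM, and FOD-CCI rat 1 had 52 counts on the left and 0 on the right. The side by diet interaction had an unadjusted p of 0.624, and 0.0148 without FOD-CCI rat 1 (log2FC −2.45, SE 0.83, edgeR adjusted p = 0.999).

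Ptgir encodes the prostacyclin receptor IP, which couples to Gs. It had 3.84, 32.3, 26.6 and 13.8 CPM in SOD-CT, 52.01, 44.4 and 37.5 in SOD-CCI, 11.75, 20.05 and 25.5 in FOD-CT, and 6.23, 31.4, 40.9 and 35.7 in FOD-CCI. SOD-CCI lay above SOD-CT in every library (log2FC 1.24, SE 0.62, unadjusted p = 0.0636, edgeR adjusted p = 0.385). The lowest of these was SOD-CT replicate 1, which held the skeletal muscle markers, and without it the log2FC was 0.90. FOD-CCI was lower than SOD-CCI on average but overlapped it (log2FC −0.64, SE 0.61, edgeR adjusted p = 0.892), and its lowest library was again replicate 1, without which the value was −0.31.

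On the right side Ptgir had 32.2, 23.2 and 33.6 CPM in SOD-CCI rats and 0.663, 24.5 and 25.7 CPM in FOD-CCI rats. The left was higher in 6 of 6 rats, by 1.61-, 1.91- and 1.12-fold in SOD-CCI rats and 9.41-, 1.28- and 1.59-fold in FOD-CCI rats, the 9.41-fold ratio being that of rat 1, at 172 against 16 counts. The ranges of left and right did not overlap on SOD (log2FC 0.62, SE 0.44, unadjusted p = 0.192). On FOD the log2FC was 1.23 (SE 0.47, unadjusted p = 0.0285, edgeR adjusted p = 0.644) and 0.53 without rat 1 (SE 0.26, edgeR adjusted p = 0.459). Over both diets it was 0.92 (SE 0.32, unadjusted p = 0.0185, edgeR adjusted p = 0.311), and without rat 1 it was smaller but called, at 0.57 (SE 0.17, edgeR adjusted p = 0.093).

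The libraries with the lowest sums of nociceptor genes were also those with the lowest Ptgir, though not in the same order among them. The 7 nociceptor markers used (Scn10a, Scn11a, Calca, Tac1, Trpv1, P2rx3 and Mrgprd) summed to 678.5, 1015 and 59.56 CPM in the 3 libraries with spinal cord transcripts (FOD-CT, FOD-CCI and FOD-CCI contralateral replicate 1), which had 11.75, 6.23 and 0.663 CPM of Ptgir, and to 1390.0 CPM in SOD-CT replicate 1, with 3.84 CPM. In the other 16 libraries the markers summed to 1535 to 2940.0 CPM and Ptgir stood at 13.8 to 52.01 CPM. In FOD-CCI contralateral replicate 1, 3 of the 7 markers were at 0. The marker sums of SOD-CCI, 2583 to 2901 CPM, overlapped neither those of SOD-CT (1390.0 to 2446 CPM) nor those of SOD-CCI contralateral DRG (1535 to 2388 CPM). On FOD the sums of left (1015 to 2940.0 CPM) and right DRG (59.56 to 2449 CPM) of CCI rats overlapped. The part of these markers in the Ptgir differences was not tested.

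**Figure D4:**
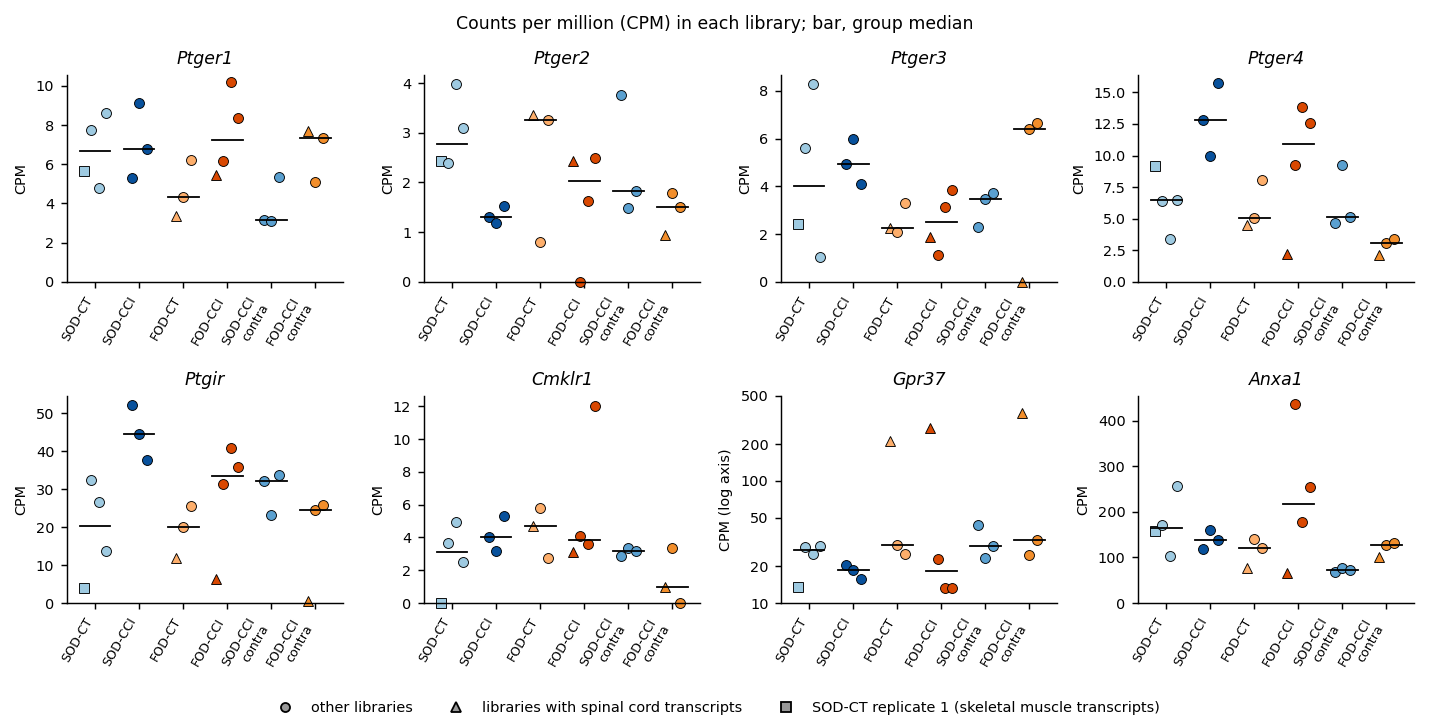
CPM in each library (points) of the 8 genes with more than isolated counts, by group, with the group median as a bar. The axis starts at 0 except for Gpr37, drawn on a logarithmic axis, where the 3 libraries with spinal cord transcripts (triangles) sit at 214, 273.5 and 364 CPM above all others.

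Cmklr1, the receptor of chemerin and resolvin E1, had 0, 90, 155 and 66 counts in SOD-CT, 114, 103 and 162 in SOD-CCI, 166, 188 and 107 in FOD-CT and 86, 120, 201 and 362 in FOD-CCI. In CPM, FOD-CCI replicate 4 stood at 12.05 and the other 19 libraries at 0 to 5.83. The groups overlapped for injury on SOD (log2FC 0.60, SE 0.89, edgeR adjusted p = 0.786) and for diet after injury (log2FC 0.46, SE 0.90, edgeR adjusted p = 0.952), of which the former was 0.18 without SOD-CT replicate 1, the library at 0, and the latter −0.20 without FOD-CCI replicate 4. That library also had the highest macrophage marker sum of the series, 584.7 CPM against 29.6 to 308.4 in the others, with none of the 8 markers at 0. The right DRG held 78, 99 and 142 counts in SOD-CCI rats and 23, 88 and 0 in FOD-CCI rats, and left was above right in 5 of 6 rats.

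Gpr37 was dominated by the 3 libraries with spinal cord transcripts, with 7606 counts in FOD-CT replicate 1, 7547 in FOD-CCI replicate 1 and 8778 in FOD-CCI contralateral replicate 1, or 214, 273.5 and 364 CPM. The other 17 libraries held 13.3 to 43.9 CPM. Oligodendrocytes are known to express Gpr37, and the oligodendrocyte marker sum was high in the same 3 libraries (1295 to 1851 CPM) and at most 47.2 CPM in the other 17. The log2FC of FOD-CCI versus SOD-CCI was 2.15 (SE 1.06, unadjusted p = 0.0612, edgeR adjusted p = 0.859). Without those libraries it became −0.15 (SE 0.31, edgeR adjusted p = 0.968). The contralateral comparison of diets behaved likewise, with 2.18 (SE 0.99, unadjusted p = 0.0472, edgeR adjusted p = 0.697) and −0.16 (SE 0.38, edgeR adjusted p = 0.979).

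Within rats, where both sides of FOD-CCI rat 1 carried these transcripts, Gpr37 was lower on the injured side in 6 of 6 rats. It had 20.5 against 43.9, 18.6 against 23.5 and 15.8 against 29.5 CPM, left against right, in SOD-CCI rats 1 to 3, and 273.5 against 364, 22.9 against 24.7 and 13.3 against 32.8 CPM in FOD-CCI rats 1 to 3. In FOD-CCI rat 2 the difference was near nil, with a ratio of 0.929 and raw counts of 670 on the left and 648 on the right. FOD-CCI rat 1 is the one whose left DRG had sham-like injury genes. The sides did not overlap on SOD (log2FC −0.76, SE 0.26, unadjusted p = 0.0172, edgeR adjusted p = 0.45). On FOD the log2FC was −0.59 (SE 0.26, unadjusted p = 0.0482), and without FOD-CCI rat 3 it was −0.25 (SE 0.25). Over both diets it was −0.68 (SE 0.18, unadjusted p = 0.00512, edgeR adjusted p = 0.199), and −0.72 without rat 1 (SE 0.21, edgeR adjusted p = 0.0991). Against sham DRG the 3 SOD-CCI libraries, at 15.8 to 20.5 CPM, lay within the SOD-CT range of 13.55 to 29.55 CPM (log2FC −0.38, SE 0.99, edgeR adjusted p = 0.886), whose lowest library was the one with muscle transcripts. The 2 FOD-CT libraries without spinal cord transcripts had 29.7 and 25.4 CPM, and FOD-CCI replicates 2 to 4 had 22.9, 13.3 and 13.3 CPM (log2FC without the spinal cord libraries −0.73, SE 0.35, unadjusted p = 0.0585, edgeR adjusted p = 0.645). Leaving out FOD-CCI replicate 1 alone, with FOD-CT replicate 1 still in the fit, gave −2.46 (SE 0.68).

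**Figure D5:**
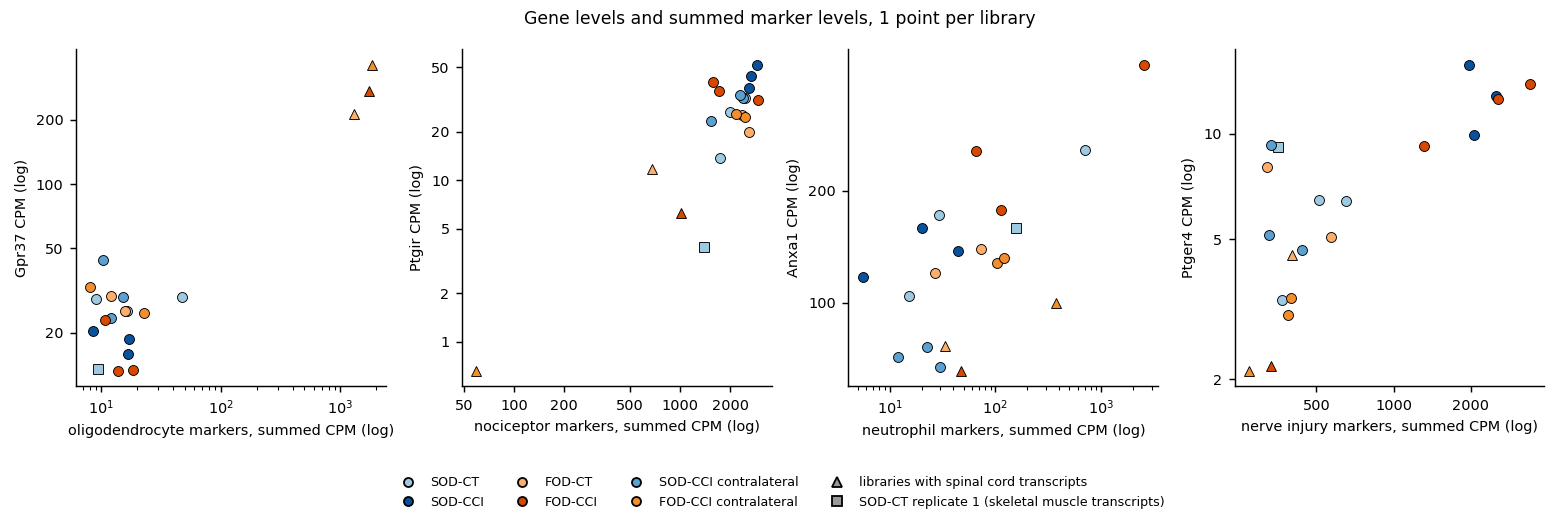
CPM of Gpr37, Ptgir, Anxa1 and Ptger4 (vertical, logarithmic) against the summed CPM of oligodendrocyte, nociceptor, neutrophil and nerve injury markers (horizontal, logarithmic), with 1 point per library. The 3 libraries with spinal cord transcripts (triangles) lie at the top right for Gpr37 and at the lower left for Ptgir, and the library at 436 CPM of Anxa1 is the one at 2559 CPM of neutrophil markers.

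Ffar4, the long-chain fatty acid receptor, was barely detected. Of the 20 libraries 13 held 0 counts, and the others held 12 (SOD-CT replicate 2), 3 and 15 (SOD-CCI replicates 1 and 2), 18 and 37 (FOD-CCI replicates 2 and 4) and 11 and 19 (SOD-CCI contralateral replicates 1 and 3), so no library exceeded 1.23 CPM. All 6 FOD-CT and FOD-CCI contralateral libraries were at 0, which allows 0.0795 to 0.133 CPM in each, while 2 of 4 FOD-CCI libraries held counts. Without a filter on low counts, the fit of FOD-CCI versus FOD-CT gave an unadjusted p of 0.0517 for Ffar4 (edgeR adjusted p = 0.733), and no fold is given against a group at 0. At this depth a difference in Ffar4 was not detectable.

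Fpr2, the receptor of lipoxin A4, resolvin D1 and annexin A1, had 0 counts in all 20 libraries, which over 608375620 counts allows up to 0.00493 CPM. The table also lists a gene named Fpr2l, which is no member and was looked at after the values of Fpr2 were seen. It held counts in 12 of the 20 libraries, the highest being 337 in FOD-CCI replicate 2 and 99 in SOD-CT replicate 4. Reads shared by near-identical formyl peptide receptor genes may not be counted for the gene they came from. The 0 of Fpr2 is thus a statement about that gene's row and not about all Fpr2-like transcripts. Fpr1 held 98 counts in FOD-CCI replicate 2, 18 in FOD-CCI replicate 3 and at most 5 elsewhere.

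Anxa1, the calcium-dependent phospholipid-binding protein that acts on Fpr2, had 159, 172, 104 and 257 CPM in SOD-CT, 118, 159 and 137.5 in SOD-CCI, 76.5, 139.5 and 120.3 in FOD-CT, and 65.7, 436, 177 and 255 in FOD-CCI. On SOD, injured and sham DRG overlapped (log2FC −0.29, SE 0.46, edgeR adjusted p = 0.802). On FOD the injured DRG were higher on average (log2FC 1.07, SE 0.47, unadjusted p = 0.0416, edgeR adjusted p = 0.9997), although replicate 1 of FOD-CCI was the lowest of the 7 left FOD libraries. Without that library the value was 1.37 (SE 0.36, edgeR adjusted p = 0.177). For FOD-CCI versus SOD-CCI the log2FC was 0.76 (SE 0.47, edgeR adjusted p = 0.859), and it ran between 0.28 without FOD-CCI replicate 2 and 1.06 without replicate 1. The diet by injury interaction was 1.36 (SE 0.66, unadjusted p = 0.0596), and 1.67 without FOD-CCI replicate 1 (SE 0.50, unadjusted p = 0.00511, edgeR adjusted p = 0.693).

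The right DRG of SOD-CCI rats had the narrowest range of Anxa1, 67.1, 76.1 and 71.5 CPM, and lay below the left of the same rats (log2FC 0.96, SE 0.37, unadjusted p = 0.0284, edgeR adjusted p = 0.5), by 1.75-, 2.09- and 1.92-fold. Without FOD-CCI rat 1, which enters only through the shared spread, that difference was called (log2FC 0.96, SE 0.24, edgeR adjusted p = 0.0945). They also lay below SOD-CT (log2FC −1.29, SE 0.30, unadjusted p = 0.000864, edgeR adjusted p = 0.7), where DESeq2 called the gene (adjusted p = 0.0416), as it did 0.371% of all genes. In the contralateral FOD-CCI DRG Anxa1 had 100, 128 and 132 CPM, above the SOD-CCI contralateral DRG without overlap (log2FC 0.78, SE 0.31, unadjusted p = 0.0266, edgeR adjusted p = 0.697). Left exceeded right in FOD-CCI rats 2 and 3, by 3.40- and 1.34-fold, and not in rat 1, whose ratio was 0.656. Over both diets the log2FC was 0.75 (SE 0.27, unadjusted p = 0.0207, edgeR adjusted p = 0.319), 1.04 without rat 1 (SE 0.19, edgeR adjusted p = 0.0186) and 0.44 without rat 2 (SE 0.18, edgeR adjusted p = 0.386).

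Neutrophils carry much annexin A1, and FOD-CCI replicate 2, the library at 436 CPM, had 2559 CPM of 6 neutrophil markers, with none of the 6 at 0, S100a8 at 912.7 and S100a9 at 1299 CPM. SOD-CT replicate 4, the second highest at 257 CPM, had 710 CPM of those markers. In the other 18 libraries they summed to 5.53 to 373.6 CPM. Among these 18 was FOD-CCI replicate 4, close behind at 255 CPM of Anxa1. The library at 373.6 CPM of the markers was a FOD-CCI contralateral one, a group with at most 132 CPM of Anxa1. The sums per group were 15.4 to 710 CPM in SOD-CT, 5.53 to 44.03 in SOD-CCI, 27.1 to 73.1 in FOD-CT, 47.2 to 2559 in FOD-CCI, 12.0 to 29.9 in SOD-CCI contralateral and 103.7 to 373.6 in FOD-CCI contralateral DRG, so the contralateral groups that did not overlap in Anxa1 did not overlap in these markers either. The macrophage marker sums did not overlap between those contralateral groups (29.6 to 72.7 against 124.4 to 281.8 CPM), nor between the left and right DRG of SOD-CCI rats (170.2 to 247.7 against 29.6 to 72.7 CPM), where all 8 macrophage markers had a log2FC above 0 (median 1.95, 7 of 8 at an unadjusted p under 0.05) and the median of the 3 tested neutrophil markers was −0.29. Over both diets 2 macrophage markers were called on the injured side, Aif1 (log2FC 1.42, SE 0.21, edgeR adjusted p = 0.0342) and C1qb (log2FC 1.55, SE 0.32, edgeR adjusted p = 0.0995). Without FOD-CCI replicate 2 the log2FC of FOD-CCI versus FOD-CT was 0.59. The part of neutrophils and macrophages in these values was not tested. The rats had been perfused with saline before dissection.

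Among 14007 genes, 0.0% were called in each of the 3 comparisons of contralateral DRG with each other and with sham DRG, and 0 of the 7 members tested. Between the diets on the contralateral side, 3 of 7 members, Ptger4, Gpr37 and Anxa1, had an unadjusted p under 0.05 (7.1% of all genes) and 2 of 7 had ranges that did not overlap (16.9%). Between the contralateral DRG of SOD-CCI rats and SOD-CT, Anxa1 alone was at an unadjusted p under 0.05 (7.06% of all genes) and without overlap (8.7%). For FOD, 0 of 7 had an unadjusted p under 0.05 (1.71%), and Ptger4 alone had ranges that did not overlap (8.85%).

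The ligands of these receptors and the enzymes that make and clear prostanoids and leukotrienes were followed as lists. Of 20 genes of synthesis and clearance 11 were tested in the left DRG, 0 were called in any comparison of left DRG, and their median log2FC after injury was −0.25 on SOD and 0.38 on FOD, against −0.01 and 0.01 over all genes. Ptges, the inducible prostaglandin E synthase, had means of 2.98 CPM in SOD-CT and 9.13 in SOD-CCI (log2FC 1.63, SE 0.64, unadjusted p = 0.0232, edgeR adjusted p = 0.314) and of 2.19 in FOD-CT and 5.66 in FOD-CCI, and it was the 1 gene of this list at an unadjusted p under 0.05 in the mean of both diets (log2FC 1.503, SE 0.46, edgeR adjusted p = 0.217). Alox5ap, which presents arachidonic acid to 5-lipoxygenase, had a mean of 13.9 CPM in FOD-CCI, 4.19 in SOD-CCI and 4.08 in FOD-CT (FOD-CCI versus SOD-CCI log2FC 1.72, SE 0.62, unadjusted p = 0.0156, edgeR adjusted p = 0.859). Of the 5 ligand genes 3 were tested and 0 called. Camp, a neutrophil peptide that binds Fpr2, had means of 69.5 CPM in FOD-CCI, 2.85 in SOD-CCI and 27.5 in SOD-CT (FOD-CCI versus SOD-CCI log2FC 4.59, SE 1.76, unadjusted p = 0.0208, edgeR adjusted p = 0.859). The 3 tested neutrophil markers had a median log2FC of 4.75 in that comparison, 2 of them at an unadjusted p under 0.05, with FOD-CCI replicate 2 at 2559 CPM of the 6 markers, and their part in the Camp and Alox5ap values was not tested.

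Of the 4 prostanoid receptor genes outside the 10, 3 were tested, and 0 were called or had an unadjusted p under 0.05 in any comparison of left DRG. All 3 had a log2FC below 0 after injury, with medians of −0.50 on SOD and −0.49 on FOD. Of 15 other receptors of fatty acids, leukotrienes and pro-resolving mediators only 4 passed the filter, and Ccrl2, a chemerin-binding receptor, alone had an unadjusted p under 0.05 after injury on FOD (log2FC 1.77, SE 0.74, edgeR adjusted p = 0.9997). Of 22 genes of cyclic AMP signalling 21 were tested and 0 called, and in the left to right contrast over both diets 2 were higher (Adcy7, log2FC 0.49, and Prkar2b, 0.57) and 2 lower (Pde4d, −0.65, and Rapgef4, −0.36) at an unadjusted p under 0.05, as were 11.6% of all genes. Of the 9 annexin and annexin partner genes 1 was called (0.962% of all genes): S100a11, a binding partner of annexin A1, was higher on the injured side over both diets (log2FC 0.83, SE 0.15, edgeR adjusted p = 0.0652), with group means of 147 CPM in SOD-CCI and 92.8 in SOD-CCI contralateral DRG. In the same contrast Anxa11 had a log2FC of 0.49 (SE 0.14, edgeR adjusted p = 0.22) and Anxa3 of 0.68 (SE 0.30, edgeR adjusted p = 0.421), and the median over the 9 genes was 0.30, against 0.03 over all genes.

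Across the 20 libraries, the gene whose log2 CPM was most like that of Ptgir was A3galt2 (Pearson r = 0.97, and 0.96 over the 17 libraries without spinal cord transcripts), followed by Prkcd and Trpa1 (both 0.95). Over the 17 libraries A3galt2 was followed instead by LOC100909595 and Dpysl3 (both 0.96). Trpa1 is an irritant-gated channel of nociceptors. For Ptger3 they were Fam199x (0.97), Il31ra, an itch receptor subunit of sensory neurons (0.95), and Slco5a1 (0.94), of which Fam199x alone stayed among the first 3 over 17 libraries (0.85). Gpr37 was most like C1qtnf4, Hdac11 (both 0.97) and Impact (0.96) over 20 libraries but like Rarres1 (0.92), Pex3 and Fez1 (both 0.91) over 17. Anxa1 was most like Gmfg (0.89 over 20 libraries and 0.95 over 17), a protein of leukocytes. Next were Cnn2 (0.87) and Tspo (0.86) over 20 libraries, and Ncf4 and Itgb2 (both 0.92), genes of phagocytes, over 17. Ptger4 had Ehbp1 (0.89), Ahr (0.88) and Parp3 (0.86) over 20 libraries, and Cmtm3 (0.88), Slc7a6os (0.86) and Tpbg (0.84) over 17. Ptger1 was most like LOC497940 (0.87) over 20 libraries and Ctbp2 (0.88) over 17, and Ptger2 like Ddx27 (0.88) over 20 and LOC102551361 (0.91) over 17. Among the members themselves, the highest value was that of Ptgir with Ptger3 (0.81, and 0.35 over 17 libraries) and the lowest that of Ptger4 with Gpr37 (−0.75, and −0.74 over 17). These values are descriptions over libraries that share groups and the admixtures given above.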

How the data were processed

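The authors deposited tables of read counts and of FPKM per gene for 20 DRG libraries from poly-A RNA, made per the labels with fastp, HISAT2 and featureCounts 1.5.0-p3. The genome build and whether the counting used strand are not given in the sources used here. The deposited counts were used for every test, and the deposited FPKM, which the authors scaled by gene length and by a constant per library that is not its total count, only to compare levels between genes. Library totals were 22547190 to 54437581 counts, and intervals or floors from counts cover counting error only.

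CPM were computed from each library total times its TMM factor over 20 libraries. Genes that held 10 or more counts in 90% or more of a fit's libraries were tested with the quasi-likelihood F test of edgeR 4.0.16 (R 4.3.3, limma 3.58.1), two-sided, with Benjamini–Hochberg adjustment over all genes tested. Calls needed an adjusted p of 0.1 or lower and a fold of 1.2 or higher. Left DRG were fitted together (14 libraries, 14484 genes), left and right DRG of CCI rats with the rat as a block (12 libraries, 14549 genes), and contralateral with sham DRG together (13 libraries, 14007 genes). The SE is the size of the log2FC divided by the square root of F. The scripts were tested on simulated data. Same-numbered left and right libraries of a CCI group came from the same rat by their library names (correlations of deviations 0.113 to 0.43, n = 6); across groups the numbers are of different rats.

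Alternatives were DESeq2 1.42.0, its size factors within edgeR, no filter, each library left out, the spinal cord or muscle libraries left out, fits of 2 groups only, and the replicate number as a block or no block. The 2 contrasts averaged over diets were added after the data were seen. The members and lists were chosen with earlier results of these data known. All 10 members were named, with fits for every tested member in SOD-CCI versus SOD-CT and FOD-CCI versus SOD-CCI, and elsewhere where the unadjusted p was under 0.05 or the ranges did not overlap, up to 4 genes of each other list by smallest p, and the 3 genes most like a member by Pearson correlation of log2 CPM (prior count 1). Other values were given beside these where a library or marker touched a result. Promoter sequences are from RefSeq on GRCr8, whose coordinates are not those of the count table, and were matched by gene ID. A marker of the nociceptor list and a gene among those most like Cmklr1 are not reported here.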

Additional observations from a re-analysis of the deposited data

Results flagged for a closer look

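In groups of 4, a library was flagged when its gap to the nearest of the others took more of the group's range than Dixon's 95% limit allows. Of 18 gene and group pairs tested, 3 were flagged, and chance flags about 1 in 20. Gpr37 stood at 273.5 CPM in FOD-CCI replicate 1 against 13.3 to 22.9 CPM in the other 3 libraries of the group, in the library with 1738 CPM of oligodendrocyte markers. Cmklr1 stood at 12.05 CPM in FOD-CCI replicate 4 against 3.12 to 4.11 CPM, in the library with 584.7 CPM of macrophage markers. Ffar4 stood at 0.485 CPM in SOD-CT replicate 2, with 12 counts, against 0 in the other 3. With 3 libraries tied at 0, any count in the remaining library is flagged. The rate of about 1 in 20 does not hold for that group, and its flag is no sign of an outlier. The part of the other cell types in these values was not tested.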

How the results depend on the processing

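The number of members called was 0 in each comparison and stayed 0 under all but 6 of the alternatives. In left versus contralateral over both diets it was 4 by DESeq2 (5.43% of all genes) and 1 without a filter on low counts (1.66% of all genes). In the same contrast it was 4 without FOD-CCI replicate 1, both DRG of that rat (7.64% of all genes). Without FOD-CCI replicate 1 it was 1 in CCI versus sham over both diets (3.54% of all genes) and 1 in SOD-CCI versus SOD-CCI contralateral (3.14%). By DESeq2 it was 1 in SOD-CCI contralateral versus SOD-CT (0.371%). The leave-one-out ranges were thus 0 to 4 and 0 to 1. Of the log2FC of single members, 548 values kept their direction and side of the threshold, 12 passed it and 12 changed sign. Leaving out 1 library in turn, log2FC ran from −0.12 to 0.27 for Ptger1 and −0.11 to 0.74 for Ptger3 in SOD-CCI versus SOD-CT, and in FOD-CCI versus SOD-CCI from −0.0803 to 0.33 for Ptger1, −0.20 to 0.67 for Cmklr1 and −0.15 to 2.51 for Gpr37. In the contralateral comparison of diets Gpr37 ran from −0.16 to 2.67. Without the spinal cord libraries Gpr37 was −0.15 and −0.16 in these 2 comparisons. With the replicate number as a block, Ptger2 was −0.31 and Cmklr1 −0.0035 in FOD-CCI versus SOD-CCI; across groups these numbers are of different rats. Same-numbered libraries of FOD-CT deviated together with those of FOD-CCI (correlations 0.19 to 0.43 in 3 pairs) and of FOD-CCI contralateral (0.18 to 0.57), the replicates 1 being those with spinal cord transcripts. With the block, 0 members and 0 genes were called in both of these comparisons and Anxa1 was 0.78 (SE 0.40) in FOD-CCI versus FOD-CT. In the other pairs of groups of different rats not every correlation was over 0.1 (−0.27 to 0.36), and the block called 0 members and 1 gene in SOD-CCI versus SOD-CT. It changed no call of a member. With no replicate block for the rat, 10 genes and 0 members were called in left versus contralateral over both diets, against 140 genes with it. The DESeq2 test called 594 genes in SOD-CCI versus SOD-CT, 476 in CCI versus sham over both diets and 790 in left versus contralateral over both diets, where edgeR called 0, 0 and 140. The cause of these changes was not tested. Low counts limit Ptger2, Ptger3, Cmklr1, Ffar4 and Fpr2, each with 1 or more libraries at 0.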
